A study of Bos taurus with 14 samples.

Results

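The genes described here are cell cycle and chromosome segregation genes, chosen by name from an array study of bovine mammary gland. A gene was taken where its bovine symbol began with CDK, CCNA, CCNB, CCND, CCNE, CENP, NCAP, KIF, ORC or BUB, with CDC or MCM followed by a digit, or was PCNA, MKI67 or TOP2A. Of 6697 symbols in the table, 78 met this rule, each measured by 1 probe set. MKI67, TOP2A, MCM2, CCNA2, CCNE1, BUB1B, CENPA, CDK6, CDKN1B and KIF11 were not among the matched symbols and are not analysed here.

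Mammary gland tissue came from 14 Holstein-Friesian cows, with 1 array per cow. Pairs of similar parity, calving date and previous yield made up 7 blocks, numbered 302 to 308. In each block 1 cow, drawn at random, received a concentrate with linseed (Omega, n = 7), which is rich in alpha-linolenic acid, and the other cow a linseed-free concentrate (Control, n = 7). Feeding on top of a shared basal diet began 3 weeks ahead of the expected calving and ended 6 weeks after it. No source used here gives the day of sampling. Parity labels were 1 for the 4 cows of blocks 302 and 306, 2 for both cows of block 304 and 3 or higher for the remaining 8. The design text lists no first-parity cows and the labels were used as given. The secretory markers LALBA, CSN3 and CSN1S1 lay at 14.50 to 14.60, 14.63 to 14.74 and 13.46 to 13.91 log2 over the 14 cows, so the tissue label met its markers on every array.

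A cell that divides first licenses its replication origins. The origin recognition complex (ORC) loads the MCM helicase onto DNA, and PCNA then clamps the polymerase to the copied strand. Cyclins switch on their partner kinases, the CDKs, and CDK inhibitors such as CDKN1A hold them back. In mitosis condensin compacts the chromosomes, CENP proteins build the kinetochore, the BUB proteins watch over its attachment and mitotic kinesins move chromosomes on the spindle. The mammary epithelium of the cow divides strongly before calving, while in lactation most cells secrete and few divide. A name prefix also collects genes with other work, such as effectors of the GTPase CDC42, kinases of transcription (CDK9) and splicing factors (CDC40, CDC5L).

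The members fell into 14 genes of DNA replication, 13 cyclins and cell-cycle kinases with their chaperone CDC37, 5 CDK inhibitors or CDK-binding inhibitors, 18 genes of mitosis and the kinetochore, 3 condensin subunits, 4 transport kinesins or their partners, and 21 genes with other roles. Only probe sets with a 14-cow mean above 4.59 log2, the 30th percentile, were tested. This kept 54 of the 78 members and left out 24, or 30.8%, against 26.4% of all symbols. The genes left out were mainly those of cell division itself. Of the 18 mitosis genes 6 were tested (BUB3, CDC23, CDC26, CENPS, CENPX and KIF22), while all 21 genes with other roles were tested.

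Several genes whose transcripts mark dividing cells had 14-cow means below the filter. BUB1, a kinase of the spindle checkpoint, lay between 2.71 and 3.05 log2 over the 14 cows. CCNB1, the cyclin of CDK1, lay between 2.83 and 3.71, CCNB2 between 2.67 and 3.31, and CCNE2, a cyclin of S phase entry, between 2.80 and 3.45. CDC20, an activator of the anaphase-promoting complex, ranged from 3.95 to 4.70 and KIF20A, a kinesin of the late spindle, from 4.02 to 4.59. MCM3 and MCM6, subunits of the same helicase, ranged from 4.08 to 4.80 and from 3.50 to 4.92. The array values give no level of one gene against another, so these ranges place each gene only against the filter.

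NCAPG, a subunit of condensin, was the exception among the untested members, as it varied widely between cows. Omega cows of blocks 302 to 308 in order had 3.58, 6.34, 3.26, 3.89, 4.78, 2.95 and 3.87 log2. Control cows had 4.31, 3.41, 4.16, 4.51, 5.08, 6.66 and 5.39. The highest cow of each diet, in block 303 for Omega and block 307 for Control, stood far above the lowest of its own diet, and the diets overlapped. The SD over the 14 cows was 1.11, above that of 99.3% of the tested probe sets. Fitted without the filter, NCAPG differed by -0.69 log2 between Omega and Control (limma adjusted p = 0.605).

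Among the tested members the spread between cows was modest. The median SD over the 14 cows was 0.20 log2, against 0.23 for all 7518 tested probe sets. The widest were CDC42EP3, an effector of CDC42, with an SD of 0.63, CDKN1A with 0.56, MCM7 with 0.43, CCND2 with 0.42 and MCM4 with 0.39. CCND1, the cyclin D that links growth signals to CDK4, had an SD of 0.11. CDK5RAP3 had 0.10 and CDK5RAP1, which modifies transfer RNA, had 0.07.

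The arrays of 2 Control cows, those of blocks 302 and 304, were far from all others on principal component 1 (43.7 and 46.4 against -18.1 to 10.8). The labels give both cows the same expected calving date, which no other cow has. Without these cows the median SD was 0.16 for the members and 0.19 for all tested probe sets. Both cows lay above the other 12 in 12 of the 54 tested members (22.2%, against a background of 21.7% of probe sets) and below them in 9 (16.7%, against 15.5%). Both shares were close to those of all probe sets.

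Within the replication and cell-cycle groups these cows were high for some genes and low for others. PCNA was at 9.02 and 8.80 log2 in the Control cows of blocks 302 and 304, against 8.09 to 8.64 in the other 12. MCM7 was at 7.74 and 7.78, against 6.28 to 7.49, and the untested MCM6 at 4.75 and 4.92, against 3.50 to 4.71. MCM5, another subunit of the helicase, went the opposite way, at 5.66 and 6.00 against 6.11 to 6.62, and so did the untested CDC45, which joins the helicase at the origin, at 3.67 and 3.63 against 3.69 to 4.58.

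The D-type cyclin CCND2 was at 6.59 and 6.81 in these cows, against 5.22 to 5.99, and its kinase CDK4 at 7.75 and 7.73, against 7.18 to 7.60. CDKN1A, which encodes the inhibitor p21, was at 5.81 and 5.30, against 6.49 to 7.66. These genes were picked after their values were seen. In 7 of the 9 tested cyclins and kinases, CCND1, CCND3 and CDK2 among them, and in 3 of the 4 tested CDK inhibitors the 2 cows did not both lie outside the range of the other 12. The condensin subunits NCAPH (4.94 and 4.98, against 5.13 to 5.72) and NCAPH2 (5.53 and 5.54, against 5.61 to 6.24) and the chromosome-bound kinesin KIF22 (5.42 and 5.46, against 5.71 to 6.25) were also below.

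Of 9 marker lists of cell types, 6 had both cows above the range of the other 12. Lists were scored per cow as the average deviation of the listed genes from their 14-cow means, in log2. The luminal epithelium list (8 of 15 genes tested) scored 0.71 and 0.65, against -0.37 to 0.32 in the other 12. Within it KRT8, KRT7, EPCAM and CSN3 were above in both cows, while KRT19, CLDN4, LALBA and CSN1S1 were not. CSN3 was only just above, at 14.744 and 14.73 against at most 14.728. The fibroblast list (8 of 9) scored 0.92 and 0.76, against -0.39 to 0.28, and the leukocyte list (5 of 7) scored 1.02 and 1.23, against -0.47 to 0.35. COL1A1 and FBLN1 of the fibroblast list and LCP1 of the leukocyte list were not above in both cows, while the other tested genes of these lists were. The basal epithelium, T cell and myeloid lists were also above, and their tested genes were mixed too. In the basal list ACTA2 was above in both cows, and KRT17, CNN1 and OXTR were not. In the T cell list CD3D, CD3G and CD8A were above, and CD2, CD3E and CD5 were not. In the myeloid list CD68, CSF1R and S100A12 were above, and CD14 and S100A8 were not. The endothelium (0.30 and -0.08), B and plasma cell (-0.33 and 1.45) and adipocyte lists (-0.01 and -0.94) were not above in both. The acute-phase gene SAA3 was at 12.80 and 13.82 log2, against 6.70 to 10.20, and LBP at 10.29 and 9.95, against 6.48 to 8.46. HP, of the same list, was at 4.84 and 10.00, against 3.49 to 6.12, and so was above only in the cow of block 304. LPL, also listed with them, was below in both cows, at 11.07 and 11.10 against 11.49 to 13.30. The array's poly-A spike controls were lower, with a mean of 6.78 and 6.50 log2 against 7.08 to 7.84. The 3 prime to 5 prime difference of actin, at 2.44 and 2.43, was within the range of 2.09 to 2.69, and that of GAPDH, at 0.80 and 0.78, was below the range of 0.81 to 1.40. The part of cell composition, acute-phase response, RNA input or calving date in these values was not tested. In bulk tissue, fewer cells of a type and less RNA per cell cannot be told apart.

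**Figure D1:**
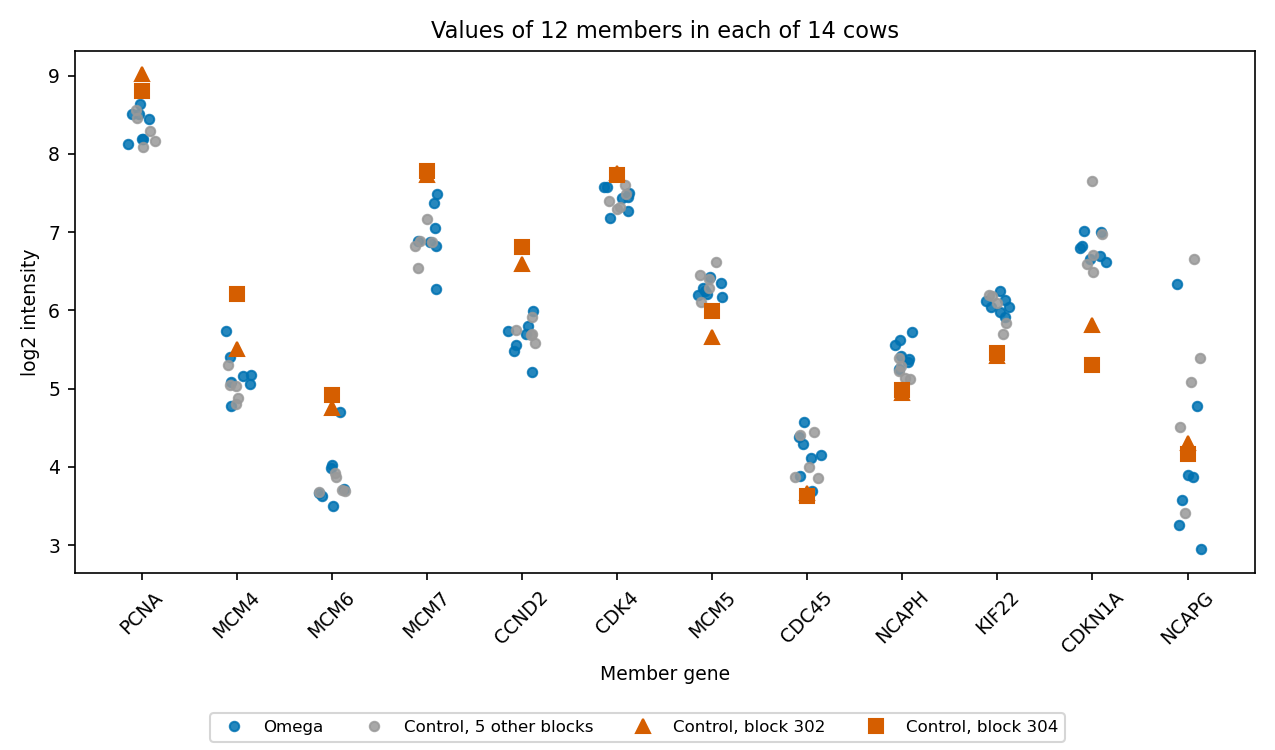
Log2 intensity (vertical axis) of 12 member genes (horizontal axis) in each of 14 cows, with 1 point per cow and points spread sideways for legibility. Blue circles are Omega cows, grey circles are Control cows of 5 blocks, and the orange triangle and square are the Control cows of blocks 302 and 304. These 2 cows lie above all others for PCNA, MCM6, MCM7, CCND2 and CDK4 and below all others for MCM5, CDC45, NCAPH, KIF22 and CDKN1A.

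The diet comparison asked whether linseed in the transition period went with different levels of these genes. With limma and the block as a fixed effect, 0 of the 54 tested members had an adjusted p under 0.05, as did 0% of the 7518 probe sets. The smallest adjusted p of a member was 0.447. Without adjustment, 5 members had p under 0.05, or 9.26%, against a background of 11% of all probe sets. Of these, 2 were higher in Omega cows (background 3.78%) and 3 were lower (7.22%). The median difference was -0.03 log2 in the members and -0.03 in all tested probe sets, and 22 of 54 members were higher in Omega cows (40.7%, against 43.1%). The members' shares were close to or below those of all probe sets. The values of the diets overlapped in all 54 members, and 0.186% of all probe sets did not overlap.

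The members with the smallest p were NCAPH and CDK1 on the higher side. NCAPH, the subunit that closes the condensin I ring, was at 5.25, 5.55, 5.34, 5.38, 5.62, 5.42 and 5.72 log2 in the Omega cows of blocks 302 to 308. In the Control cows it was at 4.94, 5.29, 4.98, 5.22, 5.14, 5.13 and 5.40. The Omega cow was the higher of the pair in all 7 blocks, which was so in 1.29% of all probe sets, but the groups overlapped, since 3 Omega cows lay below the highest Control cow. NCAPH was 0.31 log2 higher (95% confidence interval 0.15 to 0.47), or 1.24-fold, and kept this size without blocks 302 and 304, at 0.30. Its exact two-sided sign-flip p over the 7 blocks was 0.0156, the smallest this design can give.

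CDK1, the kinase that drives entry into mitosis, ranged from 5.16 to 5.78 with a median of 5.61 log2 in Omega cows, and from 5.12 to 5.41 with a median of 5.25 in Control cows. In 6 of 7 blocks the Omega cow was higher. Both cows of block 302 were at 5.41, and in block 305 the Omega cow was the lower. CDK1 was 0.28 log2 higher (0.04 to 0.52), or 1.21-fold, and 0.31 higher without blocks 302 and 304. Its cyclins were among the genes below the filter, where CCNB1 had a median of 3.19 with linseed and 3.19 without it, and CCNB2 averaged 3.11 ± 0.15 and 2.87 ± 0.12 (SD, 7 cows each).

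On the lower side were CCND2 and both small effectors of CDC42. CCND2 ranged from 5.22 to 5.99 with a median of 5.69 log2 in Omega cows and from 5.58 to 6.81 with a median of 5.75 in Control cows. Its difference was -0.36 (-0.67 to -0.06), and the Omega cow was the lower in 6 of 7 blocks. The 2 Control cows that stood apart set the upper end, and without their blocks the difference was -0.16. CDC42SE2 differed by -0.29 (-0.51 to -0.07), with the Omega cow lower in all 7 blocks (background 2.27%), and by -0.19 without these blocks. CDC42SE1 differed by -0.30 (-0.56 to -0.03), with 1 block the other way, and by -0.24 without them. All 5 genes had a limma adjusted p of 0.447.

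**Figure D2:**
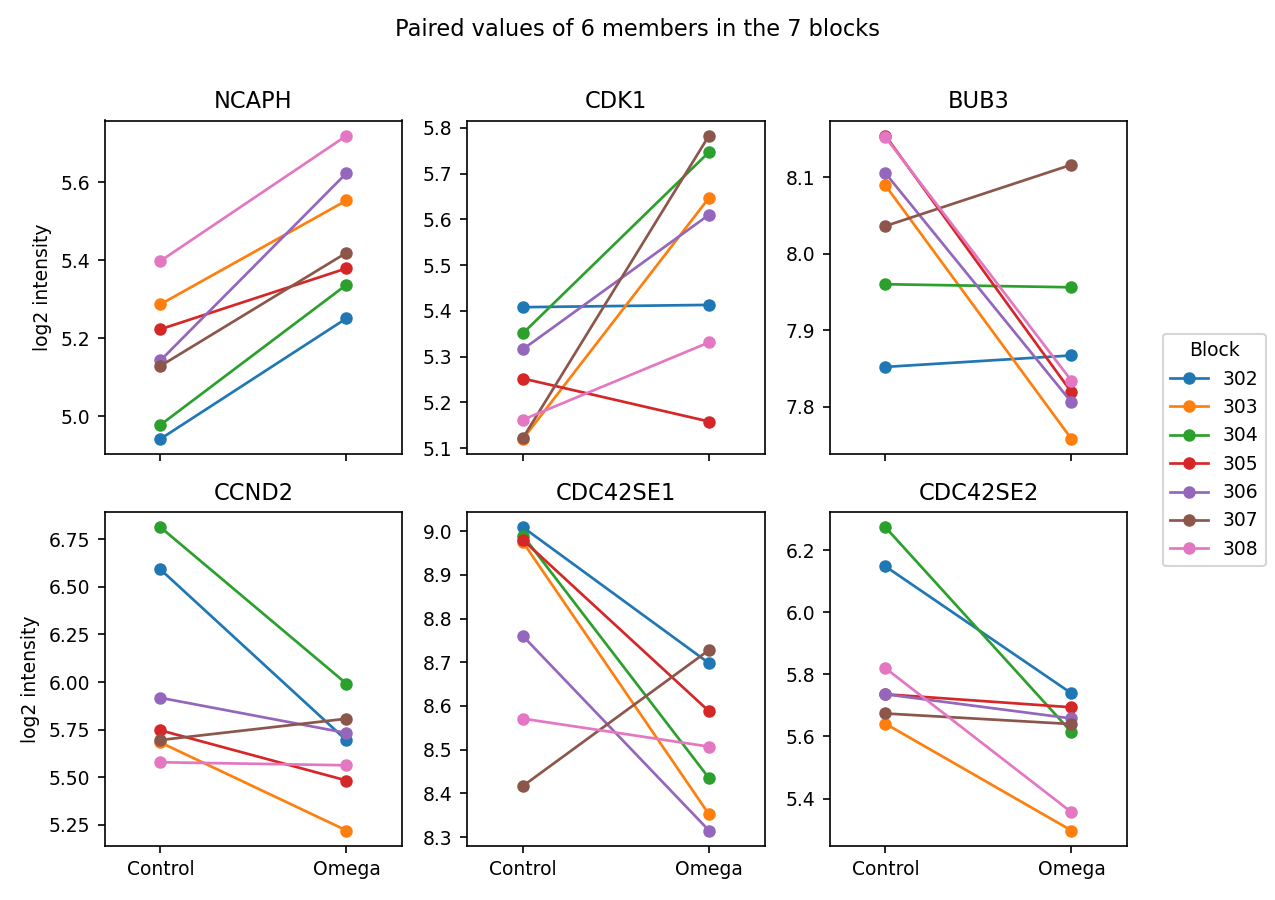
Log2 intensity (vertical axes, scaled per gene) of 6 member genes in the Control and the Omega cow of each block, with 1 line per block in its own colour. All 7 lines go up to Omega for NCAPH and all 7 go down for CDC42SE2, while 1 or more lines go against the rest for CDK1, BUB3, CCND2 and CDC42SE1.

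The next 5 members by p had intervals that included 0, with limma adjusted p from 0.46 to 0.494. CDC37L1, a relative of the kinase chaperone CDC37, differed by -0.35, CDK2AP1, which binds CDK2, by -0.20, and CDK9, a kinase of transcription elongation, by -0.18. CDC42EP2, an effector of CDC42, was 0.21 higher. BUB3, which recruits the checkpoint to the kinetochore, averaged 7.88 ± 0.12 with linseed and 8.05 ± 0.11 without it (SD, 7 cows each). This difference was -0.17. Without blocks 302 and 304 BUB3 was at -0.24, CDC37L1 at -0.23, CDK2AP1 at -0.13, CDK9 at -0.12 and CDC42EP2 at 0.06, and with quantile normalization BUB3 was at -0.10.

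By role, the replication genes had 2 of 9 tested members higher in Omega cows, with differences from -0.15 to 0.05 log2 and none at an unadjusted p under 0.05. PCNA differed by -0.11 (-0.45 to 0.23), MCM4 by -0.05, MCM5 by 0.05 and MCM7 by -0.15 (-0.62 to 0.32). All 4 changed sign without blocks 302 and 304, to 0.07, 0.09, -0.15 and 0.14. Of the cyclins and cell-cycle kinases 4 of 9 were higher, with CDK2 at 0.14, CDK4 at -0.08, CCND1 at -0.04 and CCND3 at 0.04. Of the CDK inhibitors 1 of 4 was higher. That was CDKN1A, which ranged from 6.62 to 7.02 in Omega and from 5.30 to 7.66 in Control cows. Its difference of 0.30 (-0.29 to 0.89) was -0.10 without those blocks. Mitosis genes had 3 of 6 higher and a median of -0.01, transport kinesins 1 of 3, both condensin subunits were higher, and other roles had 9 of 21.

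**Figure D3:**
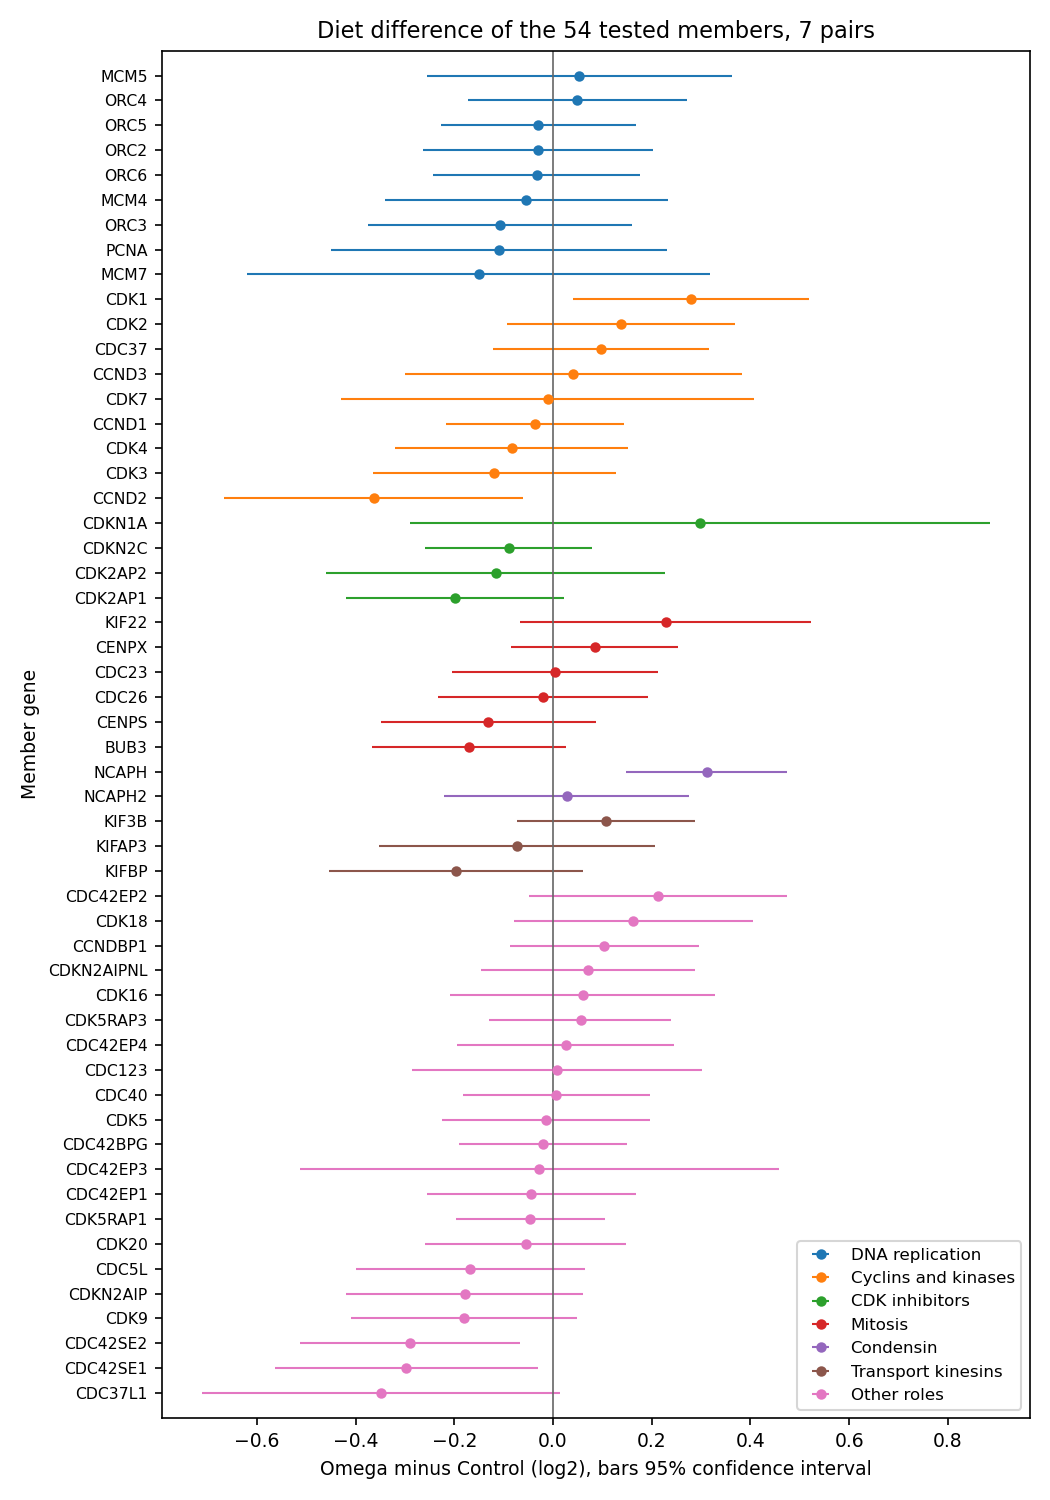
Difference in log2 intensity between Omega and Control cows (horizontal axis) for the 54 tested members (vertical axis), grouped by role in colour. Points are limma estimates over 7 pairs and bars are 95% confidence intervals, and the bars of NCAPH, CDK1, CCND2, CDC42SE1 and CDC42SE2 do not reach 0.

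The choice of cows moved these counts. Without blocks 302 and 304, 28 of 54 members were higher in Omega cows and 3 had an unadjusted p under 0.05, NCAPH, CDK1 and BUB3, against a background of 6.57%. The smallest limma adjusted p was then 0.702. Leaving out block 302 alone gave 3 such members (background 7.91%), and leaving out block 303 (6.86%) or block 304 (5.77%) gave 2. The exact sign-flip test gave 6 members at an unadjusted p under 0.05 (background 10.2%), and 0 after adjustment. The 5 members named first were among them, and the sixth was CDK5RAP1 at -0.05. The median 95% confidence interval of a member, not adjusted for the number of tests, reached 0.23 log2 to either side. After adjustment larger differences could go undetected too. CCND2, at -0.36 log2 in the fit with all blocks, had a limma adjusted p of 0.447.

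Other genes of the cycle, which the name rule does not take, were counted in the same fit. Of 111 such genes listed, 55 were in the table and 34 were tested, and 17 of them were higher in Omega cows. At an unadjusted p under 0.05 there were 6, or 17.6% of the 34, against a background of 11% of all probe sets. Of these, 2 were higher (background 3.78%) and 4 were lower (7.22%). PRC1, which bundles microtubules at the spindle midzone, was 0.57 log2 higher (0.11 to 1.04) with 5 of 7 pairs in that direction (exact sign-flip test, p = 0.0625). The pair of block 304 differed by 1.75, and the other 6 by -0.19 to 0.92. TFDP1, the partner of E2F factors, differed by -0.30, CKS1B, a small CDK-binding subunit, by -0.26, and RFC2, a subunit of the loader of PCNA, by -0.25. All 4 had a limma adjusted p of 0.447.

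The covariation of the members was described over the 12 cows other than the Control cows of blocks 302 and 304. A list of genes that rise in cycling cells held 8 tested members, CDK1, KIF22, MCM4, MCM5, MCM7, NCAPH, ORC6 and PCNA. Their 28 pairs had a median Pearson r of 0.14, with 71.4% above 0 and 7.1% above 0.5. Over all pairs of tested probe sets the median was 0.004, with 50.4% above 0 and 8.0% above 0.5. Over these 12 cows, correlations above 0.5 were thus no more frequent among these members than among all probe sets. MCM4 with MCM7 had the highest r, at 0.66, followed by MCM4 with PCNA at 0.57, MCM7 with KIF22 at 0.48 and MCM7 with PCNA at 0.47. CDK1 with NCAPH had 0.40, and the lowest was MCM5 with NCAPH at -0.43. MCM5, of the same helicase as MCM4 and MCM7, had r = -0.15 with PCNA. Over all 14 cows the median was -0.06. The pairs share cows, arrays and their RNA, so they are not independent.

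**Figure D4:**
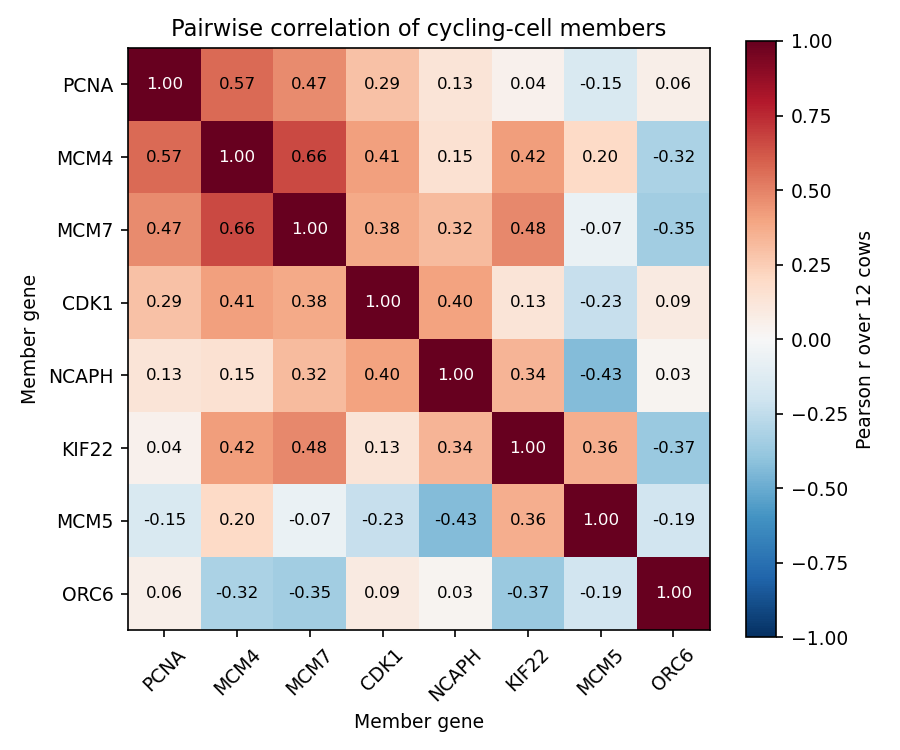
Pearson r over 12 cows for each pair of the 8 tested members that rise in cycling cells, on both axes, with red above 0 and blue below 0 on a scale from -1 to 1. The block of PCNA, MCM4 and MCM7 holds r of 0.47 to 0.66, and ORC6 and MCM5 have most of the values below 0.

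Set against PCNA, the other 53 tested members gave 0 relations with a Benjamini-Hochberg adjusted p under 0.05. At an unadjusted permutation p under 0.05 there were 6, and the share over all probe sets was not computed. The highest correlates were CDKN2AIPNL (r = 0.78, rho = 0.83), KIFBP, a partner of kinesins (r = 0.71, rho = 0.69), and CDC5L, a splicing factor (r = 0.71, rho = 0.59). CDC42EP3 followed with r = 0.60 (rho = 0.37) and MCM4 with r = 0.57 (rho = 0.63). MCM7 had r = 0.47 (rho = 0.33), with a permutation p of 0.129 and 0.456 after adjustment. Without the 2 cows named next, r was 0.71 for KIFBP, 0.78 for CDC5L, 0.52 for CDC42EP3, 0.40 for MCM4 and 0.36 for MCM7. For CDKN2AIPNL the permutation p was 0.00164 and 0.0869 after adjustment for r, and 0.00138 and 0.0731 for rho. Without the 2 cows farthest from the median of PCNA, both of block 306, its r was 0.61, and over all 14 cows it was 0.36. The lowest were CDC42EP1 (r = -0.70, rho = -0.61), CDK16 (r = -0.67, rho = -0.67) and ORC4 (r = -0.52, rho = -0.40). Without the same 2 cows these were -0.48, -0.44 and -0.28. The permutation p of r was 0.0128 for KIFBP, 0.012 for CDC5L, 0.0119 for CDC42EP1 and 0.0078 for CDK16, each 0.136 after adjustment, and 0.0397 for CDC42EP3, 0.0506 for MCM4 and 0.0876 for ORC4, at 0.35, 0.357 and 0.357.

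Cows with a parity label of 1 (n = 4) were compared with the other 10, with diet as a fixed effect and block as a random effect. By limma 0 of the 54 tested members had an adjusted p under 0.05 (smallest 0.983), as did 0% of all probe sets. At an unadjusted p under 0.05 there were 0 members, against a background of 2.19% (1.26% higher and 0.931% lower). The classes overlapped in all 54 members, where 0.0133% of probe sets lay wholly above and 0.0266% wholly below. The median difference was 0.02 log2, as in all probe sets, and 29 of 54 members were higher in label 1 (53.7%, against 55.7%). Previous milk does not overlap between these classes by the labels, so the effect of parity and that of milk yield cannot be told apart.

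CDK7, the kinase that activates other CDKs and also serves transcription, had the smallest p. It was at 6.00 and 5.05 log2 in the Control and Omega cow of block 302 and at 4.85 and 5.67 in those of block 306, and the other 10 cows ranged from 4.63 to 5.53. In each block of label 1, 1 cow was above that range and 1 was within it. CDK7 was 0.38 higher in label 1 (-0.05 to 0.81), and 0.21 higher without the Control cows of blocks 302 and 304. CDC42EP3 was 0.44 higher (-0.30 to 1.18), KIFAP3, a subunit of a transport kinesin, 0.25, CDC26, of the anaphase-promoting complex, 0.15, CDC37 0.14 and CDC40 0.13. CDK2AP2 differed by -0.27 and CDC42EP2 by -0.19. Without those 2 cows CDC26 was at 0.06 and CDC42EP2 at -0.07, and the limma adjusted p of all 8 was 1.

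Counts for parity rested on the coding and on 1 block. Without block 304, whose cows are labelled 2, 8 of 54 members had an unadjusted p under 0.05, against a background of 14.7%, and without block 306 there were 2, against 2.79%. With the label as a number, 12 members did, against 23.2% of all probe sets, with the smallest limma adjusted p at 0.162. Per 1 lower label, CDC42EP3 was 0.24 log2 higher, CCND2 0.15, CDK7 0.14 and KIFAP3 0.12. Without the Control cows of blocks 302 and 304, an alternative added after seeing the data, 4 members were under 0.05 by that coding, against 5.01%. Of these 4, CDC42EP3 (0.16) and CCND2 (0.08) were also among the 12.

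Several members were highest, or lowest, in the same 4 cows. These were the Control cows of blocks 302 and 304 and the Omega cows of blocks 304 and 306, which have labels of 1 or 2 and the highest scores on principal component 1. The Omega cows scored 2.2 and 10.8 there, and the remaining 10 scored from -18.1 to -0.6. Among these 10 were the Omega cow of block 302 and the Control cow of block 306, both of label 1, at -17.1 and -10. KIFAP3 was at 7.17 and 7.08 in the Control cows and at 6.90 and 7.01 in the Omega cows, above the range of 6.16 to 6.61 in the other 10. MCM7 was at 7.74 and 7.78 and at 7.49 and 7.37, above 6.28 to 7.17, though its parity difference was 0.03. CDK2AP2 was at 7.73 and 7.75 and at 7.65 and 7.34, below 8.07 to 8.45.

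These 4 cows lay above the other 10 in 7 of 54 members, CDC40, CDC42EP3, KIFAP3, KIFBP, MCM4, MCM7 and ORC3, or 13%, against a background of 5.76%. They lay below in 2, CDC42EP2 and CDK2AP2, or 3.7%, against 4.16%. The Omega cows of blocks 304 and 306 scored 0.07 and 0.32 in the luminal list and -0.04 and 0.35 in the leukocyte list. This count was chosen after the values were seen, the component was built from the same values, and it is given without a test. The part of cell composition was not tested.

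**Figure D5:**
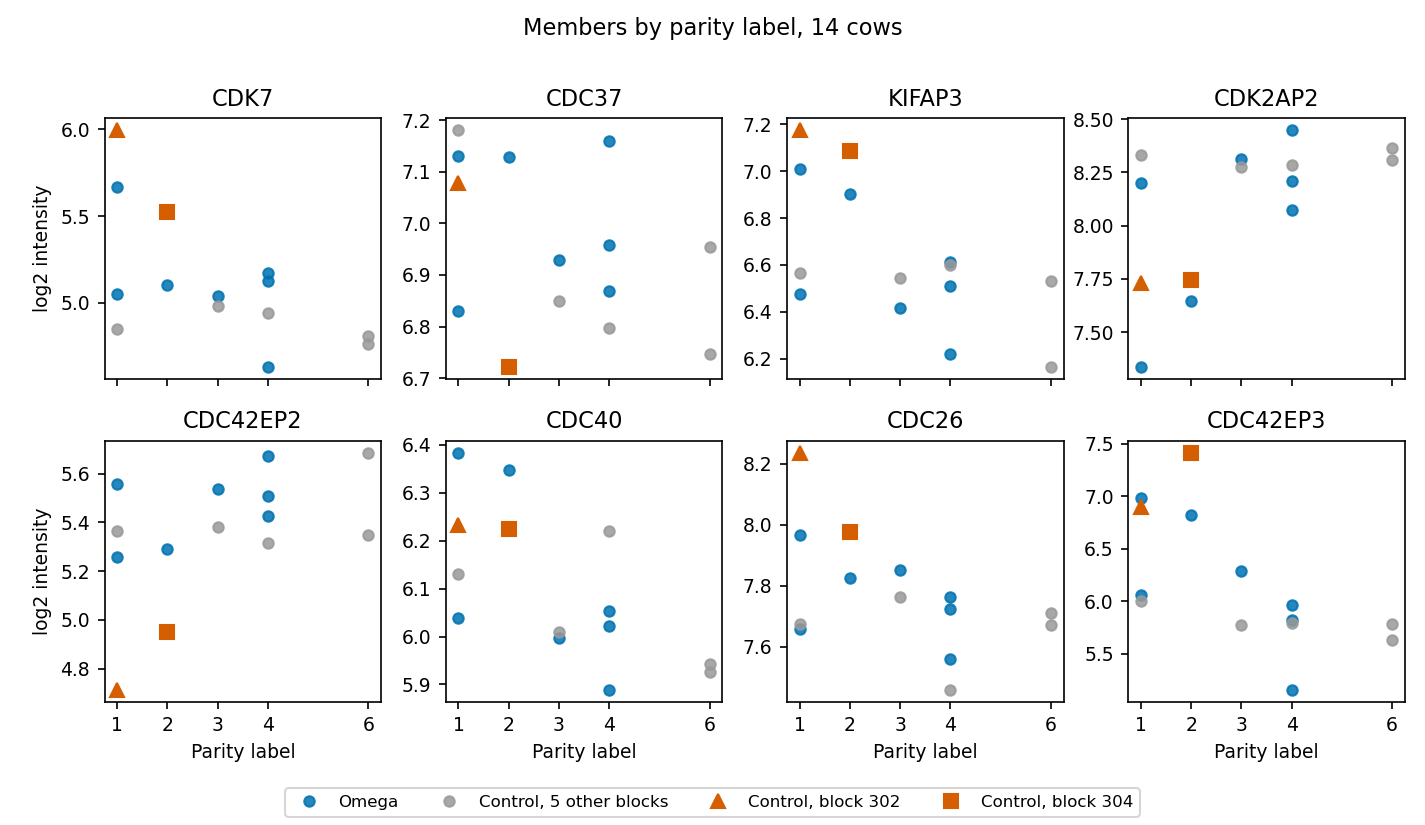
Log2 intensity (vertical axes, scaled per gene) of the 8 members with the smallest parity p against the parity label (horizontal axes) in 14 cows. Blue circles are Omega cows, grey circles are Control cows of 5 blocks, and the orange triangle and square are the Control cows of blocks 302 and 304, and the values of label 1 overlap those of the other labels in each gene.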

How the data were processed

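The authors deposited log2 intensities of 14 Affymetrix bovine arrays in 1 table, and the submitters' processing notes name RMA and GCRMA, without versions. No source used here says which of them made the values. The size of differences in members near the filter may depend on the method, and this was not tested. The number of arrays limits the precision. RefSeq accessions of 10740 probe sets were matched without versions to the RefSeq table of assembly ARS-UCD2.0, which named 6749 for 6697 symbols, and the 3991 unnamed probe sets stayed in the tests. No column was left unused (0).

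Probe sets with a mean above the 30th percentile (7518) were fitted in R version 4.3.3 with limma version 3.58.1 (lmFit, eBayes, Benjamini-Hochberg over all, threshold 0.05). The diet pairing comes from the block labels and the design text. As a check, the paired cows' deviations from their group means had correlations between -0.47 and 0.32. The block correlation in the parity fit was 0.04. On simulated data with 50 changed probe sets per size among 7518, the diet fit recovered 54% at a log2 change of 0.5, 86% at 1, and 96% at 1.5 and at 2. For parity these shares were 50%, 98%, 94% and 96%. The simulated noise was independent between cows and between probe sets, with the residual variance of the diet fit. It held no block effects and no arrays that stand apart. The shares may therefore be too high for the real arrays, above all for parity, whose classes differ between blocks.

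The members, role lists and marker lists were chosen with earlier results of these data known. The named genes were a list of core cycle genes, the 10 members with the smallest p for diet and 8 for parity, the 5 widest and 3 narrowest by SD, and PCNA with its 5 highest and 3 lowest correlates (100000 resamples). Genes given for cows that stand apart, and NCAPG, were described after their values were seen. Alternatives covered the filter, normalization, array weights, variance model, array number, block, parity coding and each block left out. A planned search of promoter motifs was not run.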

Additional observations from a re-analysis of the deposited data

Results flagged for a closer look

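Outlying cows were sought in 90 groups of a gene by diet or parity class, and 2 were found, where chance gives about 1 in 20 groups. CCNB1 had its highest Omega value in the cow of block 302, at 3.71 log2 against 3.26 for the next, and this gap was 0.599 of the range of the 7 Omega cows. KIF20A had its highest Control value in the cow of block 308, at 4.59 against 4.25, with a gap of 0.601 of the range. Both genes lay below the filter. CDK2 differed between the parity classes of blocks. Omega cows were lower by a mean difference of -0.16 in both blocks of label 1 and higher by 0.26 in the other 5, all 7 blocks going the way of their class, and the gap of -0.42 was not tested. It was the only one of 28 genes with this pattern, and the share over all probe sets was not computed. The differences of CDK2 in blocks 306 and 307 were near 0, at -0.028 and 0.034.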

How the results depend on the processing

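No alternative to any of these fits gave a member with an adjusted p under 0.05. The diet pairing was checked by leaving out the replicate block, which gave 6 members at an unadjusted p under 0.05, 4 of them among the 5 of the paired fit (background 10.5%), and for parity 0 (2.41%). Without the filter, 6 of 78 members had an unadjusted p under 0.05 for diet, 3 of them higher in Omega cows (background 10.5%). The stricter filter gave 1 for diet, with 27 members tested (background 11.2%), and leaving out blocks 302 and 304 gave 3. Leaving out each block in turn gave 2 to 6 for diet and 0 to 8 for parity. Parity as a number gave 12, and 4 without the Control cows of blocks 302 and 304. Quantile normalization turned the split of all probe sets at an unadjusted p under 0.05 for diet from 284 higher and 543 lower to 393 and 388, and gave 2 and 2 members. With array weights CCND3 was at -0.055 and MCM5 at -0.097. Without blocks 302 and 304 CCND1 was at 0.038, CDK4 at 0.053, CDKN1A at -0.097, MCM4 at 0.088, MCM5 at -0.152, MCM7 at 0.141 and PCNA at 0.069. With each block left out in turn, diet differences ran from -0.067 to 0.132 for MCM5, -0.259 to 0.067 for MCM7, -0.22 to 0.01 for PCNA, -0.058 to 0.012 for CCND1, -0.056 to 0.131 for CCND3 and -0.163 to 0.016 for MCM4, and the parity difference of CDC26 from -0.064 to 0.371. The cause of these changes was not tested. NCAPH stayed between 0.283 and 0.337. The median r of the cycling members was 0.17 by Spearman, 0.30 with block means taken out (10 cows) and 0.09 to 0.22 with each cow left out. No member had several probe sets, so that alternative changed nothing. For most of the 24 members below the filter, low signal limits what could be detected. Whether it does so for NCAPG, which ranged from 2.95 to 6.66 log2, was not tested.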
